A study of Homo sapiens with 4 samples.

Results

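Clone 8 is a set of cells that the authors assigned to 1 clone of A549, an established lung adenocarcinoma line of human origin, with a Cas9 lineage recorder, and it was sampled almost wholly from the plates of first-split plate 1. Its members were all cells that the authors' allele table assigns to clone number 8, a rule that uses the target sites a cell lists and no indel: 1231 of 34557 cells, with 6972 alleles and 137563 unique molecular identifiers (UMIs). Cells of all 4 libraries were transduced with Cas9, then with target sites, then with 3 guide RNAs expressed together, and each library is 1 final plate. The pool was split on day 7 and again on day 14, and collected on day 21; puromycin selection for the guides fell between the splits. The first digit of a plate's name was taken for its first-split plate and the last for its second-split plate. Plate 10 gave 514 Clone 8 cells with 57372 UMIs, plate 11 gave 715 with 79410 UMIs, and plates 00 and 01 gave 1 cell each. Median UMIs per cell were 91 in plate 10 and 97 in plate 11, over a range of 11 to 903 in the clone. There was 1 library per plate and no replicate, so no difference between plates was tested. Every interval below is an exact (Clopper-Pearson) 95% interval that covers counting error only. The share that a count of 0 is said to allow is instead 3 divided by the number of cells, which is lower than the exact upper limit. Cells of a clone share ancestors and are not independent draws, so the intervals are too narrow for a comparison of plates. The table holds target site alleles and no gene expression, so the identity of the cells as A549 was not checked here.

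Each target site is a stretch in the 3′ untranslated part of a GFP transcript that arrived by lentivirus, and it is read from the transcript by single-cell RNA sequencing. It has 3 cut sites, each targeted by 1 guide, and a random 14-base integration barcode (intBC) that tells the copies in a cell apart. The paper states that the guides carry single-base mismatches to their cut sites, made to slow cutting. Cas9 breaks a cut site, and imprecise repair leaves an insertion or deletion (indel) that is passed on to daughter cells and, as a rule, cannot be cut again. An indel present before the founder of a clone divided is thus shared by all its descendants, a later one by a subclone, and the latest by single cells. A cut site of an intBC is a character, its indel is its state, and an intBC that a cell does not list is missing. A missing intBC may have gone undetected, been lost or never been in the cell, and the table does not tell these apart. In what follows a state was called fixed at 95% or more of the cells with the intBC, subclonal from 2% to under 95%, and rare below 2%.

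Clone 8 had 9 intBCs and 27 characters, and none of its intBCs was listed in another clone. They are numbered by the number of cells in which they were detected, and their sequences are given because they are what assigns a cell to the clone. Where each copy lies in the genome is not given in the sources used here, and positions below count along the authors' target site reference. All letters of an intBC are in capitals since each is part of the barcode.
intBC 1: TCTGGTGCAATAGG
intBC 2: TTTAATGTTGCCAG
intBC 3: TTGTTCGTTGTATT
intBC 4: TCCCCTCCTTTTGT
intBC 5: GCCCTTAAGTTCCA
intBC 6: ATCACGGGAACCGC
intBC 7: GCTTAGTAAATTTT
intBC 8: GATAAATCAATGGC
intBC 9: AGCCCCCAATACAT

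The 9 intBCs did not occur together in 1 set of cells. Group A cells, which listed at least 1 of intBCs 2, 3, 4, 5 and 7 and neither intBC 8 nor intBC 9, numbered 998, or 81.1% of the clone. Group B cells listed none of intBCs 2, 3, 4, 5 and 7 and numbered 217, or 17.6%. Cells with members of both sets numbered 16. The groups were drawn after the values were seen, so their separation is a description. Whether both groups descend from 1 founder cell, or are related lines that were assigned to 1 clone, was not tested. No cell listed all 9 intBCs, and the median was 6 intBCs in group A and 4 in group B.

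IntBCs 1 and 6 were found in both groups, and the others in 1 group or the other. IntBC 1 was detected in 844 group A cells (84.6%) and in all 217 group B cells. IntBC 6 was detected in 676 group A cells (67.7%) and in 206 group B cells (94.9%). Cells with intBC 2 listed intBC 3 in 98.7% of cases and intBC 8 in 0.704%. Cells with intBC 8 listed intBC 1 in 100% of cases, intBC 9 in 67.8% and intBC 3 in 2.26%. Group A cells had a median of 101 UMIs and group B cells of 64, while the median UMIs of intBC 1 alone were 18 in group A and 25 in group B.

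**Figure D1:**
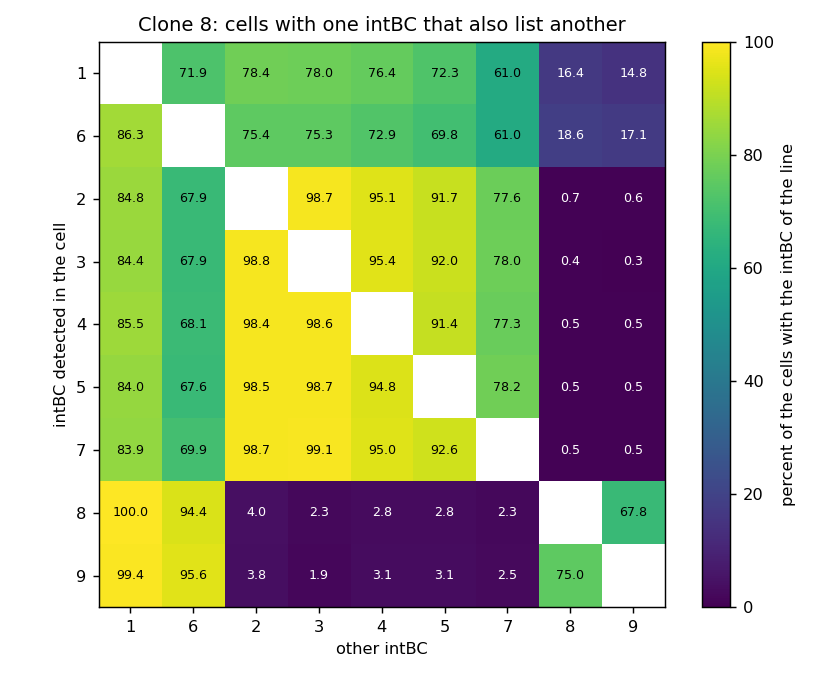
Percent of the cells with the intBC of each line (vertical axis) that also listed the intBC of each column (horizontal axis), by colour and printed value, in the 1231 cells of Clone 8. Lines and columns are ordered so that intBCs 1 and 6 come first; intBCs 2, 3, 4, 5 and 7 form a block of high values, intBCs 8 and 9 form another, and the values between the blocks lie below 5%.

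In 12 of the 15 cells of plates 10 and 11 that listed both sets, the smaller set rested on 1 UMI. In 2 of them it rested on more than 5 UMIs. Of the cell barcodes of Clone 8, 39 were also found in another library, and no barcode occurred in Clone 8 in more than 1 library.

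Over all 27 characters, 14 fixed, 51 subclonal and 348 rare states were found, and 14 characters had a fixed state. Cut site 2 was edited in 97.1% of the detected characters, cut site 1 in 84.9% and cut site 3 in 70.3%. The most frequent call was uncut at 8 characters. Deletions that spanned 2 cut sites made up 43.0% of the indel calls of Clone 8 and 29.8% of those of the other clones, and deletions that spanned all 3 made up 0.870% and 12.0%. These spanning deletions count at each cut site they cover and in each cell that carries them. At intBCs 1, 4, 5 and 2, 1 deletion across 2 cut sites was carried by 1065, 959, 925 and 771 cells. The shares are therefore not frequencies of separate editing events.

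**Figure D2:**
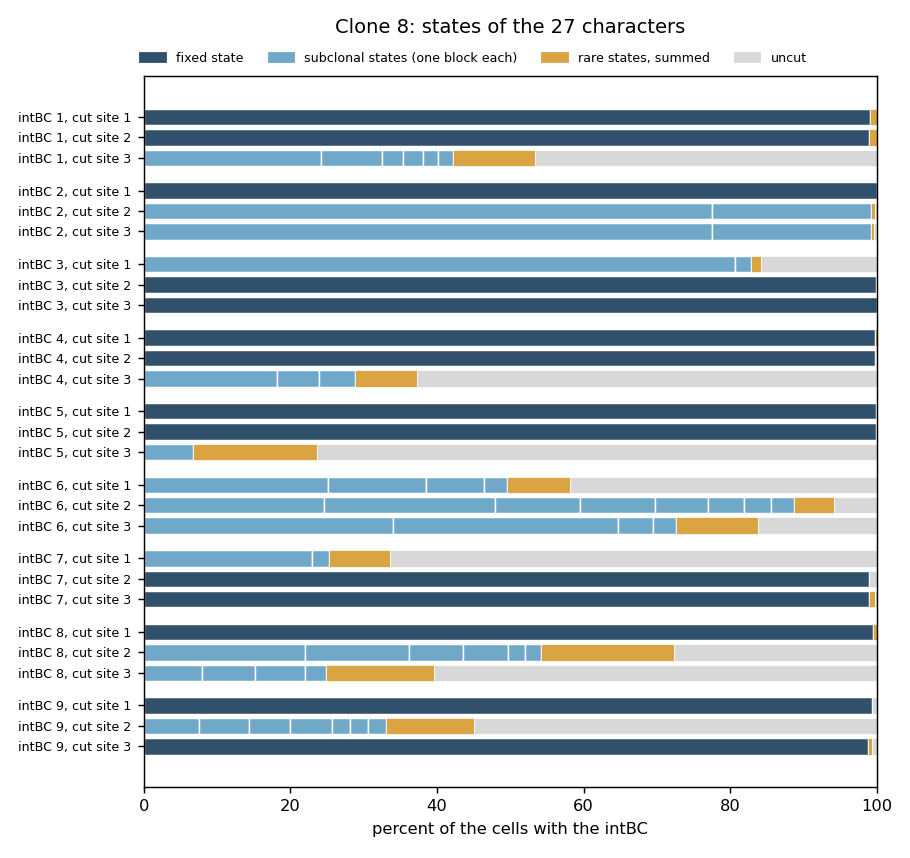
State composition of the 27 characters of Clone 8, in percent of the cells with the intBC (horizontal axis), for each intBC and cut site (vertical axis). Dark blue is a fixed state, each light blue block a subclonal state, ochre the sum of rare states and grey uncut; intBCs 4 and 5 were fixed at cut sites 1 and 2 and mostly uncut at cut site 3, while intBC 6 had no fixed state.

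The junctions of states that were fixed in the clone or in 1 of its groups, or that marked its main subclones, are shown first. The account that follows turns on them. A name such as 113:49D stands for a deletion of 49 bases that begins at position 113, and 220:1I for an insertion of 1 base at position 220. Each line gives the flanking bases as deposited, in lower case on the left of the indel and in capitals on its right, with an inserted base among the capitals.
intBC 1, 113:49D: ccgaaGATAT
intBC 1, 220:1I: aattcGGCGGA
intBC 2, 111:1D: cgccgAAAAT
intBC 2, 167:54D: gatatCGGAG
intBC 2, 164:8D: aacatGTTCA
intBC 2, 214:19D: gctatCGGTT
intBC 3, 111:1I: cgccgAAAAAA
intBC 3, 149:23D: gccatGTTCA
intBC 3, 202:27D: ggagtAATGC
intBC 4, 113:54D: ccgaaCTCTG
intBC 6, 111:2D: cgccgAAATG
intBC 6, 167:9D: gatatATCCG
intBC 6, 164:9D: aacgaTTCAT
intBC 6, 161:18D: cataaCGTGA
intBC 8, 111:1D: cgccgACAAT
intBC 9, 206:20D: tagcaGACAA

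One deletion was common to groups A and B. At intBC 1, 113:49D was listed at both cut sites 1 and 2. At cut site 1 it was carried by 1066 of 1076 cells with the intBC (99.1%, interval 98.3 to 99.6%), 99.1% in plate 10 and 99.1% in plate 11. It was present in all 217 group B cells, in 834 of the 844 group A cells with intBC 1, and in both cells of plates 00 and 01. In the table, 113:49D occurred at 17 of 117 intBCs, in 5 of 11 clones. The 10 cells without it at cut site 1 had other, longer deletions there, of which 113:113D was found in 5 cells of plate 11 and 71:160D in 3 cells of plate 10.

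The other fixed states belonged to 1 group. In group A, intBCs 4 and 5 both carried 113:54D at cut sites 1 and 2, in 99.8% and 99.9% of cells, with the same flanking bases. IntBC 2 had 111:1D at cut site 1 in all 995 cells. IntBC 3 had 149:23D at cut site 2 in 993 of 994 cells and 202:27D at cut site 3 in all 994. IntBC 7 had 151:19D at cut site 2 and 206:16D at cut site 3, each in 774 of 782 cells. In group B, intBC 8 had 111:1D at cut site 1 in 176 of 177 cells, a deletion of the same name as that of intBC 2 but with other right flanking bases. IntBC 9 had 111:3D at cut site 1 in 159 of 160 cells and 206:20D at cut site 3 in 158 of 160.

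Counted within each group, 11 states were fixed over the 21 characters of group A and 9 over the 12 characters of group B. The additional fixed states of group B lay at intBCs 1 and 6. IntBC 1 carried 220:1I at cut site 3 in all 217 group B cells and in 33 group A cells. IntBC 6 carried 111:2D at cut site 1 and 167:9D at cut site 2 in all 206 group B cells with the intBC, and 219:2D at cut site 3 in 205 of them. In group A, 111:2D at intBC 6 was found in 7 cells and 167:9D in 3, whereas 219:2D was found in 88.

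Group A divided at cut sites 2 and 3 of intBC 2. The deletion 167:54D, which spans both sites, was carried by 771 of 995 cells (77.5%, interval 74.8 to 80.0%). The pair 164:8D at cut site 2 and 214:19D at cut site 3 was carried by 216 cells (21.7%, interval 19.2 to 24.4%), the same 216 cells at both sites. The remaining cells were 6 with the insertion 166:1I at cut site 2 and 2 with both sites uncut. The deletion 214:19D was found at no other of the 117 intBCs of the table, whereas 167:54D was found at 73.

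Several states at other intBCs followed this division. Of the cells with 167:54D in which intBC 3 was detected, 764 of 765 carried 111:1I at cut site 1 of intBC 3. Among those with 164:8D, 146 of 209 were uncut there, 28 had 111:1I and 22 had 111:3D. All 22 carriers of 111:3D at intBC 3 lay in plate 11 (4.03% of its cells with intBC 3, against 0 of 446 in plate 10, which allows a share of up to 0.673%). Cells with 164:8D were edited in 80.2% of their detected characters and those with 167:54D in 84.5%, and they held 74.1 and 59.0 distinct strings of states per 100 cells, in sets of unequal size.

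IntBC 6 was the most varied of the barcodes in group A. Cut site 2 was edited in 94.2% of the 897 Clone 8 cells with a call there, with 8 subclonal states and no fixed one. Leaving out the 167:9D of group B, the most frequent was 164:9D in 209 cells (23.3%), followed by 161:18D in 104 (11.6%), 167:1D in 92 (10.3%) and 155:19D in 65 (7.25%). The states 164:9D, 161:18D and 155:19D occurred with 167:54D of intBC 2 in 208 of 208, 101 of 101 and 64 of 64 carriers with intBC 2. The 52 cells that were uncut at this site also all carried 167:54D of intBC 2. The state 167:1D occurred with 164:8D of intBC 2 in 89 of 90 carriers, and 162:5D, with 34 carriers, in 33 of 34.

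Cut site 3 of intBC 6 followed the intBC 2 division in part. Its most frequent state over the clone, 219:2D, was carried by 205 group B cells and 88 group A cells. In group A the most frequent was 220:1I, with 274 cells. Percents in this paragraph are over the 897 Clone 8 cells with a call, group B included. The 219:2D carriers with intBC 2 lay in both arms, with 167:54D in 71 and with 164:8D in 17 of 90. Uncut calls were also found in both, in 59 and 83 of 143. The arms held 509 and 161 cells with a call at intBC 6, so uncut calls were a larger share of the 164:8D arm. The insertion 220:1I was found in 275 cells (30.7%), all of the 273 with intBC 2 also carrying 167:54D there. It included all 209 carriers of 164:9D and 64 of the 65 carriers of 155:19D. At cut site 1, 111:3D was found in 121 cells (13.5%), all 121 with 167:54D of intBC 2, and 111:1I in 70 (7.80%), split 40 and 27 between the carriers of 167:54D and 164:8D. A deletion of 108 bases, 113:108D, removed all 3 sites in 28 cells, and 27 of 27 with intBC 2 carried 164:8D.

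At cut site 3 of intBCs 1, 4 and 5 most group A cells were uncut. At intBC 1 the site was uncut in 502 cells (46.7%), all but 3 of them in group A, and the most frequent state beside 220:1I was 219:2D in 89 cells (8.27%). At intBC 4 it was uncut in 603 cells (62.7%), with 220:1I in 175 (18.2%), 219:2D in 55 (5.72%) and 206:16D in 47 (4.89%). All 169 carriers of 220:1I at intBC 4 with intBC 2 had 167:54D there, and 114 of 142 with intBC 6 had 164:9D. At intBC 5 it was uncut in 707 cells (76.3%), with 219:2D in 62 (6.70%). Among the uncut calls at cut site 3 of intBC 4, those of 22 cells, 3 in plate 10 and 19 in plate 11, had flanking bases that differed from the other uncut calls, and none of these 22, all with intBC 2, carried 164:8D.

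IntBC 7 was the reverse case, fixed at cut sites 2 and 3 and mostly uncut at cut site 1. It was uncut there in 519 of 782 cells (66.4%) and carried 111:1I in 180 (23.0%, interval 20.1 to 26.1%). The 179 carriers of 111:1I with intBC 2 lay in both arms of the intBC 2 division, but in unequal shares. Over cells with both intBCs, they were 81 of the 578 cells with 167:54D and 97 of the 188 with 164:8D.

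Group B divided at cut site 2 of intBCs 8 and 9. At intBC 8 the site was uncut in 49 of 177 cells (27.7%), carried 166:1I in 39 (22.0%, interval 16.2 to 28.9%), 154:26D in 25 (14.1%, interval 9.35 to 20.1%) and 167:54D in 13 (7.34%). A call with 2 insertions, 159:6I+168:3I, was found in 11 cells (6.21%), and at no other intBC of the table. Of these 11 cells, all with intBC 9, 10 were uncut at cut site 2 of intBC 9. Cut site 3 of intBC 8 was uncut in 107 cells (60.5%) and carried 198:22D in 14 (7.91%) and 219:2D in 12 (6.78%). At intBC 9, cut site 2 was uncut in 88 of 160 cells (55.0%), with 149:23D in 12 (7.50%), 166:1I in 11 (6.88%), and 163:11D and 155:19D in 9 each (5.62%). The 149:23D of intBC 9 had the same name and flanking bases as the fixed state of intBC 3, and 11 of its 12 carriers were group B cells, which did not list intBC 3.

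Clone 8 cells lay unevenly in plates 10 and 11 at collection on day 21. Whether this arose at the split of day 14 or after it was not tested. Of its 1229 cells in plates 10 and 11, 41.8% (interval 39.0 to 44.6%) were in plate 10, against 47.7% (interval 46.9 to 48.5%) of the other 15750 cells of those libraries. Group A had 446 cells in plate 10 and 551 in plate 11, a plate 10 share of 44.7% (interval 41.6 to 47.9%). Group B had 61 and 156, a share of 28.1% (interval 22.2 to 34.6%), so that group B made up 11.9% of the clone's cells in plate 10 and 21.8% in plate 11.

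Within group A the arms of intBC 2 also differed in value. Carriers of 167:54D were 365 in plate 10 and 405 in plate 11, or 47.4% in plate 10 (interval 43.8 to 51.0%). Carriers of 164:8D were 77 and 139, or 35.6% (interval 29.3 to 42.4%). The 111:1I of intBC 7 was carried by 107 of the plate 10 cells with the intBC (30.7%, interval 25.9 to 35.9%) and 73 of those of plate 11 (16.9%, interval 13.5 to 20.8%). In contrast, 162:5D of intBC 6 had 2 carriers in plate 10 and 32 in plate 11, and 113:108D had 4 and 24. Not all large subclones were uneven: 164:9D of intBC 6 was found in 25.2% of the plate 10 cells and 22.2% of the plate 11 cells with the intBC, and 220:1I of intBC 4 in 16.8% and 19.4%.

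Group B held the state with the largest gap between the plates among those of at least 5%. The 166:1I of intBC 8 was found in 1 of 52 plate 10 cells (1.92%, interval 0.0487 to 10.3%) and 38 of 125 plate 11 cells (30.4%, interval 22.5 to 39.3%). The 154:26D of the same site went the other way, with 16 cells in plate 10 (30.8%, interval 18.7 to 45.1%) and 9 in plate 11 (7.20%, interval 3.35 to 13.2%). The 149:23D of intBC 9 had 0 carriers among 47 plate 10 cells, which allows a share of up to 6.38%, and 12 among 112 plate 11 cells (10.7%). The 155:19D had 0 and 9.

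Most subclonal states were found on both plates, with 5 that had no carrier in plate 10 and 2 that had none in plate 11. Of the 51 subclonal states, the interval of the plate 10 share contained the share of the whole clone for 32, lay above it for 8 and below it for 11, counts that include spanning deletions at each of their sites. Of the 70 states with at least 10 carriers, 2 were confined to 1 plate: 111:3D of intBC 3 and 149:23D of intBC 9, both in plate 11. Of the 193 states with at least 2 carriers on these plates, 98 were found on both and 95 on 1.

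**Figure D3:**
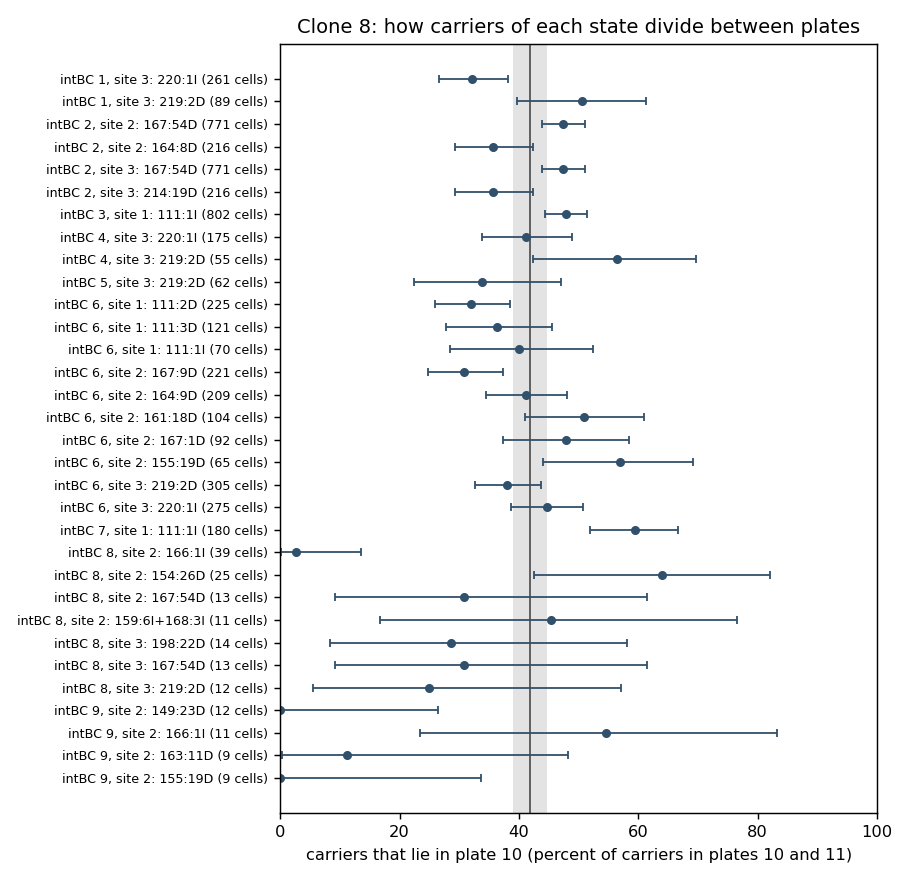
Percent of the carriers of each subclonal state of at least 5% that lay in plate 10 (horizontal axis), for each intBC, cut site and state (vertical axis), with exact 95% intervals as bars. The vertical line and grey band are the share of the whole clone, 41.8%, and its interval; 166:1I of intBC 8 lies farthest to the left among the states with over 12 carriers, and 111:1I of intBC 7 and 154:26D of intBC 8 lie to the right.

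Missing intBCs in Clone 8 followed the groups, which were themselves drawn from the intBCs listed. Over the whole clone, intBCs 1 to 7 were missing from 12.6 to 36.4% of cells, and intBCs 8 and 9 from 85.6% and 87.0%, with a median of 24.8% over the 9. Whether cells of one group ever held the intBCs of the other was not tested, so these shares over the whole clone cannot be read as rates of loss. Within group A, the 5 intBCs that define it were listed by 98.7% (intBC 2), 98.9% (intBC 3), 95.4% (intBC 4), 91.9% (intBC 5) and 77.6% (intBC 7) of cells. Within group B, intBC 8 was missing from 22.6% of cells and intBC 9 from 31.8%. In plates 10 and 11 these shares were 21.3% and 23.1% for intBC 8 and 31.1% and 32.1% for intBC 9, within each other's intervals. Of the 16 group B cells that lacked both, all had intBCs 1 and 6, 1 lay in plate 10 and 15 in plate 11.

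Within group A, the share of cells without intBC 1 varied with the state of intBC 6. IntBC 1 was missing from 71 of 104 carriers of 161:18D (68.3%, interval 58.4 to 77.1%) and from 8.92% (interval 6.71 to 11.6%) of the 572 other group A cells with a call at that site. Among carriers of 155:19D it was missing from 30.8% (interval 19.9 to 43.4%), among those of 164:9D from 5.77% (interval 3.02 to 9.86%), and among the 52 uncut cells from 0, which allows a share of up to 5.77%. The 161:18D carriers lacked intBC 1 in 73.6% of cases in plate 10 and 62.7% in plate 11. Their median was 100 UMIs per cell, against 111 in the others. The cause of the missing intBC was not tested.

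**Figure D4:**
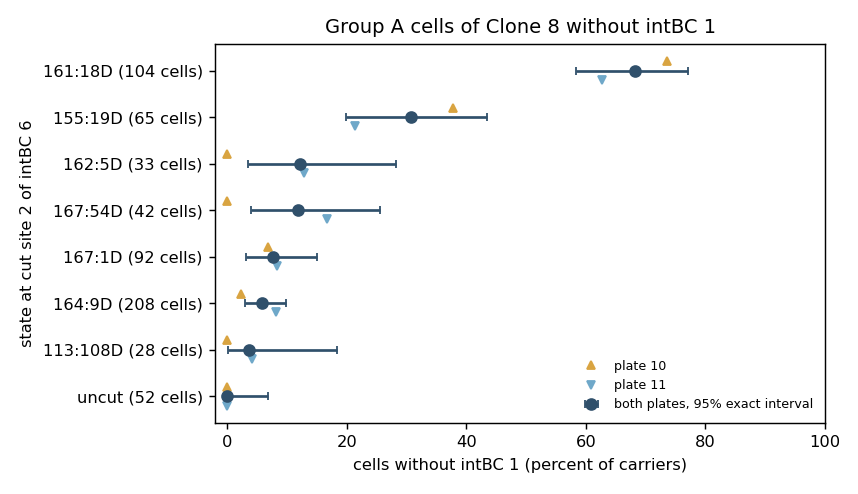
Percent of group A cells without intBC 1 (horizontal axis) by the state at cut site 2 of intBC 6 (vertical axis), with exact 95% intervals over both plates and the value of each plate as a triangle. Carriers of 161:18D lie at 68.3% and those of 155:19D at 30.8%, above every other state plotted.

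IntBC 6 and intBC 7 were also missing unevenly. IntBC 6 was missing from 33.7% of plate 10 cells (interval 29.6 to 37.9%) and 22.5% of plate 11 cells (interval 19.5 to 25.8%). The values differed in the same direction within group A, at 39.3% in plate 10 and 29.7% in plate 11 among carriers of 167:54D of intBC 2, and at 35.1% and 20.6% among carriers of 164:8D. In group B, in which 94.9% of cells listed intBC 6, it was missing from 1.64% of plate 10 cells and 6.41% of plate 11 cells. IntBC 7 was missing from 12.2% of the group A carriers of 164:8D at intBC 2 and from 25.1% of those of 167:54D, with median UMIs per cell of 115 and 99.

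The rare states were many but covered few calls. The 348 rare states made up 785 of 17580 indel calls (4.47%), and 220 of them were found in 1 cell. Alleles with a rare state had a median of 17 UMIs and those with other states of 16. Of the 286 distinct indels by cut site in Clone 8, 59 were found in no other clone. The same count was not made for the other clones, so this share cannot be read as particular to Clone 8.

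Pairs of subclonal states at different intBCs were compared over the cells with both intBCs detected. On a single tree with each state made once, carriers of any 2 states are nested or disjoint. Of 652 pairs, 134 (20.6%) were nested, 280 (42.9%) disjoint and 238 (36.5%) crossing, with a tolerance of 2% of the smaller set. For small sets this tolerance is less than 1 cell, so 1 cell can make a pair crossing. An example is 166:1I of intBC 8, of which 38 of 39 carriers also had 220:1I of intBC 1. Spanning deletions such as 167:54D of intBC 2 enter at each of their cut sites, so some pairs of the same cells are counted more than once. Crossing pairs were fewer among indels that are uncommon in the table: they made up 6 of 77 pairs (7.79%) in which neither indel was found at 50% or more of the 117 intBCs, 29.3% of 297 pairs with 1 such indel and 52.2% of 278 pairs with both. The states in the most crossing pairs were 111:1I of intBC 7 (29 pairs), 219:2D of intBC 5 (27), and 220:1I of intBC 1 and 219:2D of intBC 4 (26 each). Pairs share states and cells, so these shares are a description. Left out of the 652 were 411 pairs in which at least 1 state was absent from the cells with both intBCs. Pairs across the groups rest on few cells: intBCs 2 and 8, for example, were listed together in 7.

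Cassiopeia-Greedy, which splits cells in turn by the most frequent state, gave 34 clades of at least 25 cells. The first split set the 1066 carriers of 113:49D of intBC 1 apart from cells that mostly lacked intBC 1, so that cells with 167:54D of intBC 2 fell in a clade of 603 and another of 143. All 217 group B cells passed through a clade marked by 111:1I of intBC 3, an intBC they did not list, because cells missing the splitting character are placed by their other states. They then formed a clade of 225 cells marked by 220:1I of intBC 1, with 66 cells in plate 10 (29.3%, interval 23.5 to 35.8%). The plate 10 share of a clade had an interval that contained the clone's share for 21 clades, lay above it for 6 and below it for 7. Clades lie within one another and share cells, so these are not counts of separate sets. Of those below, clades of 225, 219, 216, 146 and 57 cells lay one within another and held mostly group B cells. In 4 clades, more cells were placed with the marking state missing than carried it. The clade of 164:8D had 171 cells, 32.7% of them in plate 10 (interval 25.8 to 40.3%), and within it the clade of 113:108D had 31 cells, 12.9% in plate 10 (interval 3.63 to 29.8%).

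Strings of all 27 characters took 741 distinct values, with missing counted as a state. Group A had 62.6 distinct strings per 100 cells and group B 46.1, over 21 and 12 characters and in sets of unequal size. Of the 187 strings found in more than 1 cell, 59 occurred in both plates 10 and 11, and the most frequent was shared by 27 cells, 8 in plate 10 and 19 in plate 11. The mean normalized allelic distance, on which 0 is identity and 1 a different indel at every character, was 0.226 among cells of plate 10, 0.268 among cells of plate 11 and 0.251 between them. Within group A the corresponding values were 0.165, 0.179 and 0.173, and within group B 0.0743, 0.0808 and 0.0790. Between groups A and B the distance was 0.445, against 0.169 within them. These distances count missing characters, and the groups were drawn from the intBCs listed, so part of this gap follows from the grouping. With missing characters left out, the values were 0.456 between the groups and 0.155 within them. The value between groups then rests only on intBCs that both cells listed.

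The 2 cells outside plates 10 and 11 differed from each other. Both had high UMI counts, 370 in the plate 00 cell and 411 in the plate 01 cell, above 98.9% and 99.3% of the cells of plates 10 and 11. Their barcodes were found in no other library. The plate 01 cell listed the 7 intBCs of group A and carried all 11 fixed states it could show, with 167:54D at intBC 2 and 111:1I at intBC 3. With missing characters left out, 33 cells of plates 10 and 11 differed from it at no character, and these could not be compared at intBCs 6 and 7. Its alleles at those intBCs, the latter with 95:22D at cut site 1, were found in no cell of plates 10 and 11. Its nearest cell there lay at a distance of 0.037, with missing characters counted.

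The plate 00 cell carried 6 of the 13 fixed states it could show. It had 113:49D at intBC 1, 113:54D at intBC 4, 111:1D at intBC 2 and 202:27D at intBC 3. It was uncut or had another state at cut sites at which the rest of the clone was fixed: 151:19D in place of 149:23D at intBC 3, uncut and 165:11D in place of 113:54D at intBC 5, and uncut at cut sites 2 and 3 of intBC 7. It listed intBC 9 with 5 UMIs, uncut at cut sites 1 and 3. Its nearest cell in plates 10 and 11 lay at a distance of 0.278. Both plate 0 cells had the same allele at intBC 6, uncut at cut site 1 and 167:54D across cut sites 2 and 3, which was found in 0 of the 895 cells of plates 10 and 11 with intBC 6, a count that allows a share of up to 0.335%.

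Beside the other 10 clones, Clone 8 ranked 5 of 11 from the highest in the share of detected characters that were edited, 84.1% over a range of 5.31 to 99.8%. Its order of cut sites, 2 before 1 before 3, was also that of Clones 2, 3, 6, 9, 10 and 11. A fixed state was present at 51.9% of its characters, over a range of 0 to 88.9%, and at 57.1% of those of Clone 9, which had no cell in first-split plate 0. Its plate 10 share was the lowest of the 11 clones, which ranged up to 58.4%, and the intervals of Clone 5, 38.0 to 58.2%, and Clone 11, 35.6 to 54.3%, contained it. Of its 36 pairs of intBCs, 10 were listed together in under 10% of the cells of the less frequent intBC, which was the case for 4 pairs in Clone 5 and for none in the other 9 clones. With 1 value per clone, none of these ranks was tested.

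**Figure D5:**
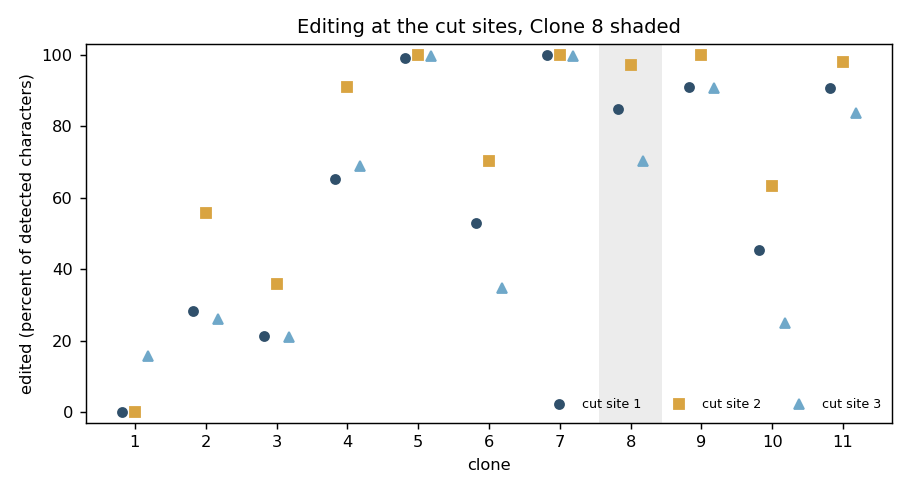
Percent of detected characters that were edited (vertical axis) at cut sites 1, 2 and 3 (symbols) in each of the 11 clones (horizontal axis), over all cells of a clone. Clone 8, shaded, lies at 84.9%, 97.1% and 70.3%.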

How the data were processed

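The analysis starts from the final allele table deposited by the authors, which lists for each cell and intBC the UMI and read counts of the allele, not normalized, the clone and the indel text at 3 cut sites. The authors ran Cell Ranger 2.0.1, aligned a consensus of each UMI to the target site reference, assigned clones from shared intBCs and took out doublets; no doublet caller was run here. They then kept for each clone the intBCs that at least 10% of its cells shared. The last step can remove intBCs that are confined to a small set of cells. Deposited trees of Clones 5 and 9 were not used.

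Each cut site of each intBC was made a character, with the indel text and its flanking bases as the state. Cassiopeia-Greedy and the allelic distance were re-implemented from the methods of the paper and tested on simulated data. Those data held no state that arose repeatedly, and recovery of every clade was required only without missing characters. The test thus does not cover clades in which cells were placed with the state missing. In the allelic distance, missing or uncut against an indel counts 1 and different indels 2, divided by the largest possible sum. Named items were every intBC and cut site, the most frequent state of each character, states of 5% to under 95%, clades of at least 25 cells and each cell outside plates 10 and 11. Groups A and B, 162:5D, 113:108D, 206:16D of intBC 4, 111:3D of intBC 3, the exceptions to fixed states and the 22 uncut calls were named after their values were seen. The clone and the lists were chosen with earlier results of these data known. Depth was 679952 to 812480 UMIs per library, and each plate is 1 library, so no p-value is given. As alternatives, alleles under 5 UMIs or intBCs below 50% of the cells were left out, plates 10 and 11 were taken alone, and states without flanking bases and other thresholds were used. Scripts ran in Python 3.11.15 (scipy 1.17.1, pandas 2.3.3, numpy 2.4.6, matplotlib 3.10.9).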

Additional observations from a re-analysis of the deposited data

How the results depend on the processing

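The number of fixed states stayed within 1.5 times under every alternative tried. Subclonal states fell to 32 with a threshold of 5%, and rare states to 160 in plate 10 alone and 220 in plate 11 alone. The edited share was 84.7% in plate 10 alone and 74.8% with indels that span several cut sites treated as missing, which gave 73.4, 93.6 and 66.0% at cut sites 1, 2 and 3. Cut site 1 was edited in 86.0% with at least 5 UMIs per allele and in 85.8% in plate 10 alone. Cut site 2 was edited in 99.05% with intBCs in at least 50% of cells, which leaves out intBCs 8 and 9, in 97.9% in plate 10 alone and in 96.6% in plate 11 alone. The median share of cells without an intBC was 34.8% with at least 5 UMIs and 19.5% in plate 10 alone.

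Clades of at least 25 cells numbered 19 in plate 10 alone and 17 with cells missing the splitting character left out, and clades of at least 12 cells numbered 54. With clades limited to carriers of the marking state, the plate 10 share was 44.8% for 149:23D of intBC 3, 43.9% for 113:54D of intBC 4, 46.7% for 111:1I of intBC 3, 38.2% for 111:3D of intBC 6 and 0% for the clade of 166:1I of intBC 8, which had 27 carriers among 57 cells, the clade of 199:86D of intBC 8, with 1 carrier of 27 cells, and 1 of the 3 clades of 219:2D of intBC 6, with 3 carriers of 44 cells. With at least 5 UMIs the clade of 167:1D of intBC 6 had 43.1% in plate 10. Distinct strings per 100 cells were 63.5 with at least 5 UMIs, 52.1 with intBCs in at least 50% of cells, 65.8 in plate 10 alone and 64.3 in plate 11 alone. No cell had every intBC, so the value over such cells could not be given. The between-plate distance minus that within plates was -0.0031, and -0.0019 with intBCs in at least 50% of cells and -0.0092 with missing characters left out. Nested, disjoint and crossing pairs were 11.6, 36.4 and 52.0% with intBCs in at least 50% of cells, and nested and disjoint pairs 25.2 and 36.5% in plate 10 alone. Chosen after seeing the data, a minimum of 5 UMIs left 4 cells with both sets of intBCs in place of 16. The causes of these differences were not tested. With 1 library per plate, depth and culture cannot be told apart from the plate.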
